A study of Mus musculus with 6 samples.

Results

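The genes described here build and regulate the neuronal cytoskeleton: alpha, beta and gamma tubulins, proteins that bind, cut or anchor microtubules, the stathmins, the neurofilament subunits and the growth cone protein gene Gap43. Members were taken by symbol from the platform annotation, and 43 of the 18193 genes with a single symbol on the array met the rule. Each gene was read on its probe set with the highest mean over the 6 arrays, and its other probe sets were checked, 114 in all. Tissue came from newborn C57BL/6 mice (postnatal day 1), with subiculum and retrosplenial cortex dissected together. In 3 D6/Zbtb20S transgenic samples these areas are described in the labels as CA1-transformed, that is, altered towards the hippocampal field CA1, and 3 samples came from wildtype littermates. Each array held RNA pooled from 7 animals, so no value belongs to one mouse, and separate litters are not stated for the pools of a genotype; p-values therefore measure the spread between these pools. The labels name the transgene but not the cells in which it is active, and no other allele or treatment is given for either genotype.

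Microtubules are hollow polymers of alpha and beta tubulin that carry transport along axons and dendrites, and gamma tubulin starts their growth. Structural microtubule-associated proteins stabilise and space them, end-binding proteins and CLASPs act at their growing ends, katanin and spastin cut them, and stathmins bind free tubulin. Neurofilaments are the intermediate filaments of neurons. Immature cortical neurons are rich in alpha-internexin, and the light, medium and heavy neurofilament subunits accumulate as axons mature and widen.

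In D6/Zbtb20S tissue the neurofilament light and medium subunit genes Nefl and Nefm, the alpha tubulin gene Tuba4a and Map7 were lower, while Map1b, Map4 and Ina, the alpha-internexin gene, were higher. Of the 43 genes, 3 rose, 4 fell and 36 did not pass an adjusted p under 0.05 in limma. Among all 18193 genes, 7.71% passed that threshold, 4.06% higher and 3.64% lower. At 2-fold or more, 3 genes fell (Nefl, Nefm and Tuba4a) and 1 rose (Map1b), against 1.45% of all genes that passed at such a size in either direction. The median change of the 43 genes was -0.08 on the log2 scale, against -0.02 over all genes. None of the stathmins, doublecortin family, end-binding, severing or anchoring genes, gamma tubulins or beta tubulins passed in limma; at an unadjusted p under 0.05 there were 3 beta tubulin, 2 severing or anchoring and 1 stathmin gene and 0 in the other groups. Among all genes 20.3% were at an unadjusted p under 0.05.

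**Figure D1:**
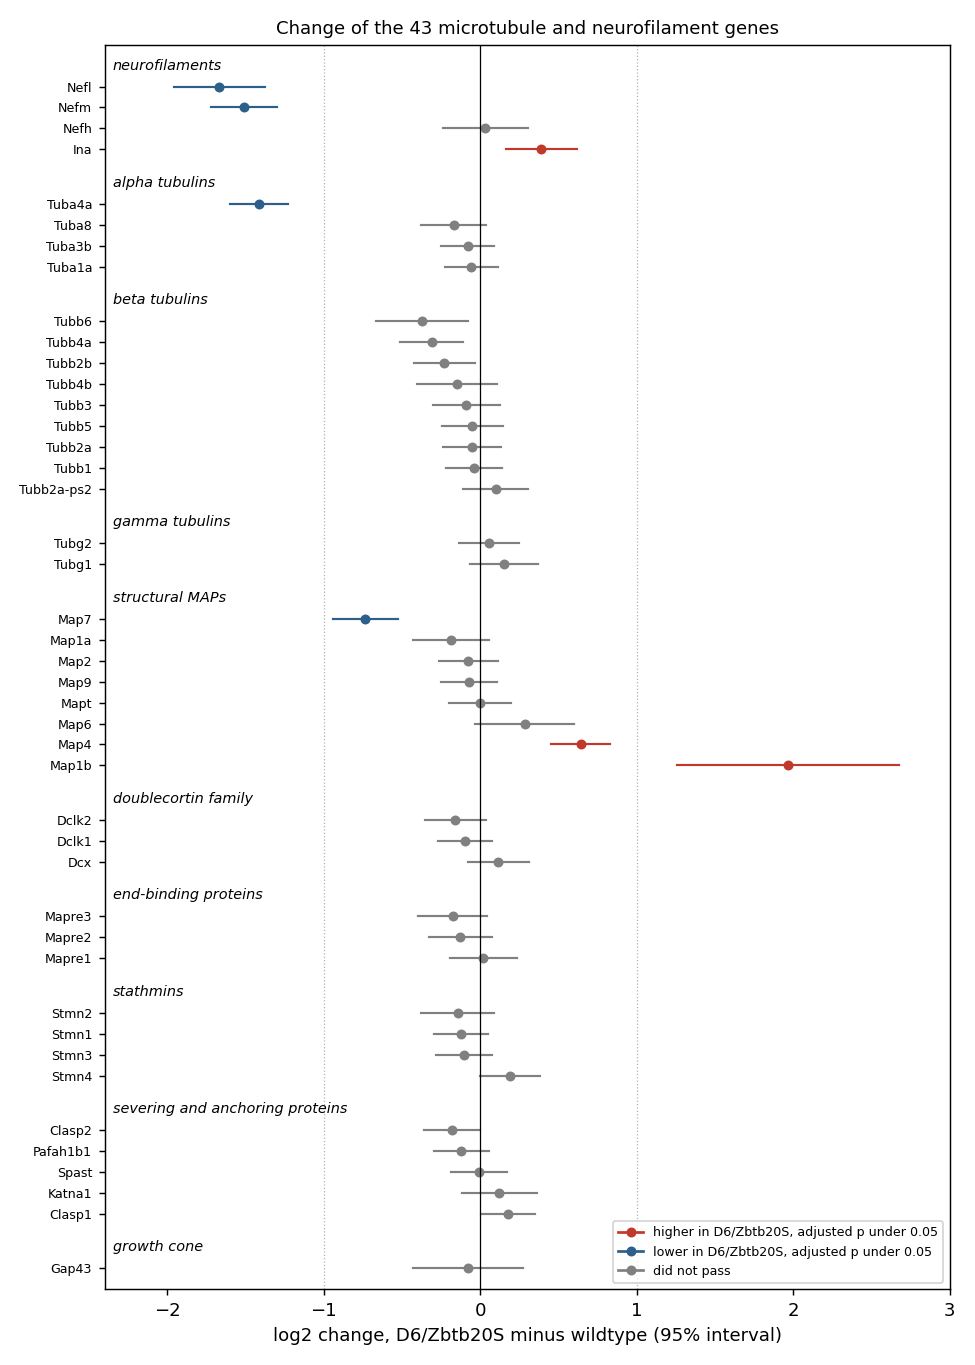
Log2 change (D6/Zbtb20S minus wildtype, horizontal axis) of each of the 43 genes, grouped by role, with its 95% interval from the moderated fit over 3 and 3 arrays. Red marks genes higher and blue genes lower in D6/Zbtb20S tissue at an adjusted p under 0.05, grey those that did not pass, and dotted lines mark a 2-fold change; only Nefl, Nefm, Tuba4a and Map1b lie beyond them.

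Promoter windows are shown for 2 genes that fell (Tuba4a and Map7) and 2 that rose (Map1b and Ina), since they are the stretches next to the start of transcription of genes that moved in each direction. Of the 43 genes, 27 had an entry in the RefSeq promoter table (GRCm38.p6), among them 5 of the 7 that passed; Nefl and Nefm are named only. Each window holds the 250 bases before the annotated start, 5′ to 3′ on the gene's strand. Tuba4a lies on the minus strand (chr1:75219295-75219544), Map7 on the plus strand (chr10:20148670-20148919), Map1b on the minus strand (chr13:99516603-99516852) and Ina on the plus strand (chr19:47014431-47014680). Capitals mark every match to a GC box (GGGCGG) or TATA box (TATAAA) on either strand.
Tuba4a: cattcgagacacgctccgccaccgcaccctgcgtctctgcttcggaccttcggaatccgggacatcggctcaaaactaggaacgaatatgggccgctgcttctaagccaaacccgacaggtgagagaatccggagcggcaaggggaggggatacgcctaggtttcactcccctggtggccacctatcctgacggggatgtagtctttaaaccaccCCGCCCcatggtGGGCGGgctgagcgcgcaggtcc
Map7: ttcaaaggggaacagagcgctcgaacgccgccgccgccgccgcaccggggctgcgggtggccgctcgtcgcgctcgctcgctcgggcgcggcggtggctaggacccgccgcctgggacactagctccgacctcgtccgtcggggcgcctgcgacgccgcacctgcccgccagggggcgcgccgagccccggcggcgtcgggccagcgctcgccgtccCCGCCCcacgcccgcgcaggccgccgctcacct
Map1b: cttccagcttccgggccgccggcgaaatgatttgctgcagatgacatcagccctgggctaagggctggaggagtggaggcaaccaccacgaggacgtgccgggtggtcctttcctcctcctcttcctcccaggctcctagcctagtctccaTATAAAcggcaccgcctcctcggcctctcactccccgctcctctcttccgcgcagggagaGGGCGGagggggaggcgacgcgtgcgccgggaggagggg
Ina: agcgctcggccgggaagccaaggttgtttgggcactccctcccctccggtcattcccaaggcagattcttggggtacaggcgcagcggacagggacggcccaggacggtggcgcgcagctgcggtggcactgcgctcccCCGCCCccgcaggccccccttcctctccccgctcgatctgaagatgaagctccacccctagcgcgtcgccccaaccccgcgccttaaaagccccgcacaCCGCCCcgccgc
The windows are rich in G and C, at 61.6% in Tuba4a, 80.4% in Map7, 66.4% in Map1b and 70.8% in Ina. All 4 held a GC box, which occurs in 32.7% of the 32851 windows of this length in the table, and they include genes that fell and genes that rose. Only Map1b among the 4 held a TATA box, with its first base 99 bases before the start; 12.4% of all windows hold one. The cAMP response element TGACGTCA (1.55% of all windows) was searched on both strands as well and was in none of the 4. Over the 27 genes with an entry, 14 had a GC box, 6 a TATA box and 2 a cAMP response element in at least 1 window. The motifs do not overlap one another in these windows, and a match describes letters, not binding.

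Neurofilament genes were examined first. Nefl, the light subunit on which the other subunits assemble, read 7.92, 7.83 and 8.31 on the log2 scale in the 3 D6/Zbtb20S arrays, against 9.53, 9.81 and 9.72 in wildtype arrays (replicates 1, 2 and 3 in that order here and below). Every transgenic array lay more than 1 log2 unit below every wildtype array. The mean was 8.02 ± 0.25 in D6/Zbtb20S and 9.69 ± 0.14 in wildtype tissue (SD, n = 3 each), a 3.18-fold fall (log2 change -1.67 ± 0.13, limma adjusted p = 5.3e-05). Its other probe set, 1454672_at, fell by 1.29 on the log2 scale (limma adjusted p = 0.000481 over all probe sets).

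Nefm, the medium subunit, read 6.66, 6.68 and 6.85 in D6/Zbtb20S arrays, against 8.38, 8.21 and 8.12 in wildtype arrays. The groups were again far apart, and the fall was 2.85-fold (log2 change -1.51 ± 0.10, limma adjusted p = 1.7e-05). Nefm has no other probe set with a single symbol. Nefl and Nefm are next to each other in the order of protein-coding genes on mouse chromosome 14, and the genes on their outer sides, Dock5 and Adam7, had log2 changes of -0.12 and -0.19 and did not pass (adjusted p = 0.58 and 0.234). Around all 7 genes that passed, 10 of the 12 other nearest protein-coding neighbours were measured and 0 passed in limma, with 3 at an unadjusted p under 0.05; the nearest to the threshold were Cartpt beside Map1b (0.34, adjusted p = 0.0517) and Map3k5 beside Map7 (-0.48, adjusted p = 0.0565).

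Ina moved the other way from its partners. It read 9.73, 9.78 and 9.78 in D6/Zbtb20S arrays, against 9.28, 9.26 and 9.60 in wildtype arrays, so that wildtype replicate 3 came close to the transgenic ones. The rise was 1.31-fold (log2 change 0.39 ± 0.10, limma adjusted p = 0.0485). This call was the least stable of the 7: it was lost in all fits that left out 1 array except the one without wildtype replicate 3 (highest adjusted p 0.195), and missed the threshold with replicate number as a block (adjusted p = 0.0531). Of the other Ina probe sets, 1448992_at rose (0.50 ± 0.10, adjusted p = 0.0215 over all probe sets) and 1418178_at, at 0.09 ± 0.09, did not pass. Over all probe sets the representative one, 1448991_a_at, did not pass either (adjusted p = 0.0766). Nefh, the heavy subunit gene, lay under the array median of 3.87 in both genotypes, at 3.28, 3.09 and 3.43 in D6/Zbtb20S arrays and 3.23, 3.04 and 3.43 in wildtype arrays, so a change there was not detectable.

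**Figure D2:**
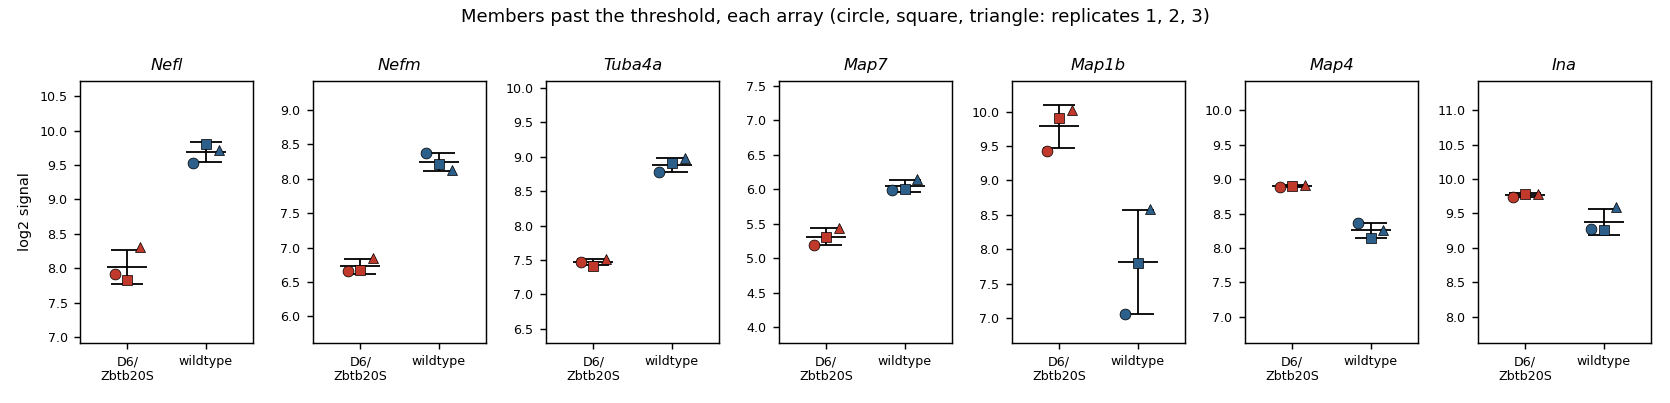
Log2 signal (vertical axis, same span in each panel) of the 7 genes that passed, on each D6/Zbtb20S array (left, red) and wildtype array (right, blue); bars are the mean ± SD of 3 arrays. The genotypes do not overlap in any panel, and the wildtype arrays of Map1b spread from 7.07 to 8.58.

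Bulk RNA cannot tell fewer cells of a type from less RNA per cell, and some markers of other cells moved beside these genes. The summed linear signal of 10 oligodendrocyte lineage genes was 751 to 847 in D6/Zbtb20S arrays and 1024 to 1220 in wildtype arrays, with 4 of the 10 lower (limma) and Mag and Mog under the array median in both genotypes. That of 14 GABAergic genes was 1136 to 1223 in D6/Zbtb20S and 1345 to 1410 in wildtype arrays, with 2 lower. That of 12 microglial genes was 820 to 949 in D6/Zbtb20S and 629 to 667 in wildtype arrays, with 4 higher. Changes were negative for 8 and positive for 2 oligodendrocyte genes, 10 and 4 GABAergic genes, and 1 and 11 microglial genes. Among the GABAergic genes Gad1 had the largest fall, from 8.48 in wildtype to 7.88 in D6/Zbtb20S tissue. Over all genes 4.06% passed as higher and 3.64% as lower. The sums of the radial glia and astrocyte, intermediate progenitor, endothelial and mural, choroid plexus, red blood cell and cycling cell lists overlapped between genotypes. Single genes in them still passed in limma: Eomes (log2 change -1.11), Sox2 (-0.42) and Slc2a1 (-0.36) were lower and Neurog2 (0.87) higher. Of 5 listed red blood cell genes 2 were measured, both under the array median. An overlapping sum thus does not show that the genes in a list were unchanged. The sum of 11 genes listed for excitatory neurons overlapped too, at 5172 to 5678 in D6/Zbtb20S and 4978 to 5692 in wildtype arrays. Of these genes 3 were higher (log2 changes Neurod2 1.12, Bcl11b 0.99, Camk2a 0.65) and 3 lower (Tbr1 -1.41, Slc17a6 -1.26, Snap25 -1.03). Slc17a7 lay near the array median, at 4.15 in D6/Zbtb20S and 4.06 in wildtype tissue. The overlapping sum therefore does not show that these listed genes were unchanged. Whether the list marks excitatory neurons alone was not tested. The part of these shifts in the cytoskeletal changes was not tested.

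Of the tubulins, Tuba4a alone passed. It encodes an alpha tubulin that is made without the C-terminal tyrosine of most other alpha tubulins. Tuba4a read 7.48, 7.42 and 7.52 in D6/Zbtb20S arrays, against 8.77, 8.90 and 8.98 in wildtype arrays. The fall was 2.66-fold (log2 change -1.41 ± 0.08, limma adjusted p = 1.3e-05), with no overlap between arrays. Probe set 1417374_at fell alike (-1.27 ± 0.09, adjusted p = 0.000231 over all probe sets), whereas 1417375_at, at 4.97 in D6/Zbtb20S and 4.92 in wildtype tissue, did not pass (0.06 ± 0.09).

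The main alpha tubulin gene of developing neurons, Tuba1a, read 12.36, 12.47 and 12.39 in D6/Zbtb20S arrays, against 12.44, 12.49 and 12.46 in wildtype arrays. Its change was -0.06 with a 95% interval from -0.23 to 0.11, on a probe set of the _x_at type, which can match related transcripts, and near the highest value on any array, 12.71. Whether signal near the top of the scale compressed a change was not tested. Tuba8 read 3.31, 3.48 and 3.46 in D6/Zbtb20S arrays and 3.60, 3.71 and 3.46 in wildtype arrays. Tuba3b, on its only probe set with a single symbol, was likewise under the array median in both genotypes. A further 7 probe sets carry several symbols, one of them a tubulin of the rule (Tuba1a, Tuba1b, Tuba1c, Tuba3a, Tuba3b or Tubb2b). They gave 0 calls in limma and 3 at an unadjusted p under 0.05, with changes from -0.26 to 0.10 (adjusted p from 0.201 to 0.973).

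The 9 beta tubulin genes gave 0 calls in limma, with 3 at an unadjusted p under 0.05, and 8 of the 9 changes were negative, against 54.1% of the changes over all genes. The positive one was that of Tubb2a-ps2, a pseudogene by its symbol. It lay under the array median in both genotypes, at 3.81 in D6/Zbtb20S and 3.71 in wildtype tissue. Tubb5, a beta tubulin of dividing cells and young neurons, read 11.73, 11.88 and 11.89 in D6/Zbtb20S arrays and 11.97, 11.90 and 11.78 in wildtype arrays, which overlap. Tubb2a, a neuronal isotype, read 11.45, 11.51 and 11.36 in D6/Zbtb20S arrays and 11.41, 11.49 and 11.57 in wildtype arrays, also overlapping. The 95% intervals of the change were -0.25 to 0.14 for Tubb5 and -0.24 to 0.13 for Tubb2a. Tubb3, the isotype often used to mark neurons, changed by -0.09 (-0.30 to 0.13).

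Below the threshold but without overlap between arrays were Tubb2b (-0.23, limma adjusted p = 0.162), Tubb6 (-0.37, adjusted p = 0.132) and Tubb4a (-0.31, adjusted p = 0.0673), singled out after their values were seen. Of all genes, 13.2% lay below wildtype without overlap. The other Tubb6 probe set, 1446353_at, was at 0.16 and did not pass, and averaged over its probe sets Tubb6 was at -0.11 (adjusted p = 0.524). Tubb4a, an isotype abundant in oligodendrocytes, read 7.99, 8.02 and 8.21 in D6/Zbtb20S arrays and 8.30, 8.42 and 8.43 in wildtype arrays. It passed in 4 of 14 alternative fits (adjusted p from 0.00944 to 0.232 over the 14), beside the lower oligodendrocyte sum given above. Tubb4b, with 6 probe sets, was negative on all of them (-0.35 to -0.12) and passed on none. The gamma tubulins did not pass: Tubg1 read 5.53, 5.52 and 5.78 in D6/Zbtb20S arrays and 5.56, 5.43 and 5.39 in wildtype arrays, and Tubg2 read 5.82, 5.70 and 5.78 in D6/Zbtb20S arrays and 5.79, 5.75 and 5.58 in wildtype arrays.

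**Figure D3:**
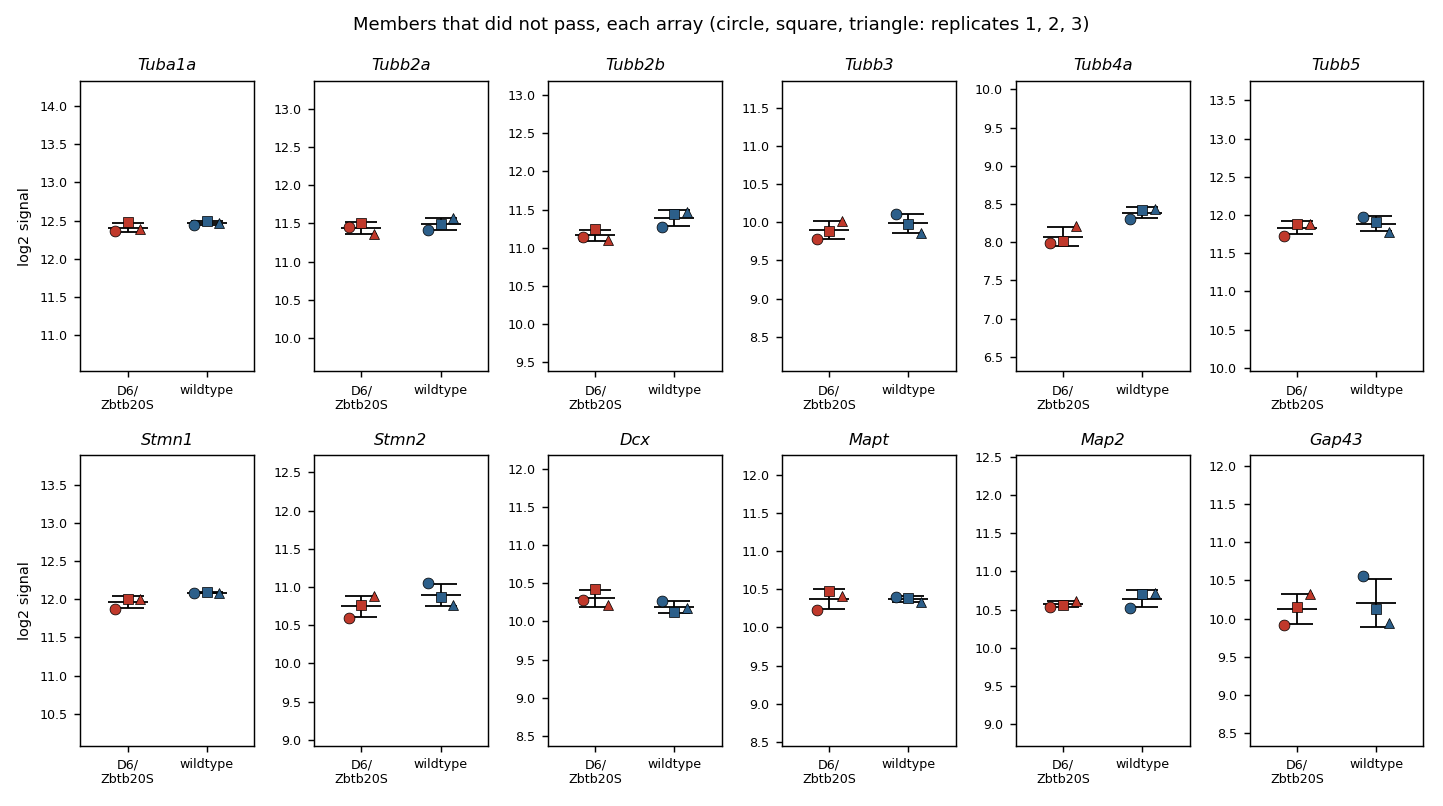
Log2 signal (vertical axis, same span as for the genes that passed) of 12 genes that did not pass, on each D6/Zbtb20S array (left, red) and wildtype array (right, blue), with the mean ± SD of 3 arrays. Arrays of the genotypes overlap for most; those of Tubb2b, Tubb4a and Stmn1 do not, at changes of -0.23, -0.31 and -0.12.

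Structural microtubule-associated proteins held both the largest rise and a fall. Map1b, a stabiliser of dynamic microtubules in growing axons, read 9.43, 9.91 and 10.02 in D6/Zbtb20S arrays, against 7.07, 7.80 and 8.58 in wildtype arrays. The lowest transgenic array was above the highest wildtype one, but the wildtype arrays differed widely among themselves. The rise was 3.92-fold (log2 change 1.97 ± 0.32, 95% interval 1.26 to 2.68, limma adjusted p = 0.00435), and without wildtype replicate 3 the log2 change was 2.35 (adjusted p = 0.000175). Over the fits with 1 array left out the highest adjusted p of Map1b was 0.0288. Averaged over its probe sets Map1b rose by 1.11 on the log2 scale (limma adjusted p = 0.000138), so the size of the rise depended on arrays and probe sets.

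The difference between the 3' and 5' actin control probe sets, a measure of RNA integrity and labelling, was 0.80, 0.91 and 0.83 in D6/Zbtb20S arrays and 0.53, 0.88 and 1.31 in wildtype arrays. Wildtype arrays thus stood in the same order for Map1b and for this control, and the part of RNA quality in the Map1b spread was not tested. Map1b probe set 1421851_at did not share that order, at 6.56, 6.71 and 6.51 in D6/Zbtb20S arrays and 5.62, 5.69 and 5.42 in wildtype arrays. On it the rise was 1.02 ± 0.10 on the log2 scale (limma adjusted p = 0.00084 over all probe sets), which is smaller but tighter. The remaining probe set, 1421850_at, at 0.36 ± 0.14, did not pass (adjusted p = 0.209).

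Map4, a microtubule-associated protein of many cell types, read 8.89, 8.90 and 8.91 in D6/Zbtb20S arrays, against 8.36, 8.14 and 8.27 in wildtype arrays. It rose 1.56-fold (0.64 ± 0.08, limma adjusted p = 0.00121). None of its 4 other probe sets passed, 2 of them positive at 0.48 and 0.38 and 2 at -0.06, and averaged over its 5 probe sets Map4 lost its call (0.28, adjusted p = 0.0574). Map7, which binds microtubules and recruits kinesin-1, read 5.19, 5.30 and 5.44 in D6/Zbtb20S arrays, against 5.99, 6.00 and 6.15 in wildtype arrays. It fell 1.66-fold (-0.73 ± 0.09, limma adjusted p = 0.000991). Its probe set 1421835_at, under the array median, fell too (-0.62 ± 0.12, adjusted p = 0.0193 over all probe sets).

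Map2, the dendritic microtubule-associated protein, and Mapt, which encodes tau of axons, did not pass. Map2 read 10.54, 10.56 and 10.62 in D6/Zbtb20S arrays and 10.52, 10.70 and 10.72 in wildtype arrays, with a 95% interval of the change from -0.26 to 0.11. The 3 other Map2 probe sets had changes from 0.03 to 0.45, and none passed. Mapt read 10.23, 10.48 and 10.41 in D6/Zbtb20S arrays and 10.40, 10.39 and 10.33 in wildtype arrays, an interval from -0.20 to 0.19. Both sets of arrays overlap. Map1a, the relative of Map1b that is prominent in mature dendrites, was at -0.19 (adjusted p = 0.385).

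Map6, which encodes the cold-stable microtubule protein STOP, was at 0.28 (adjusted p = 0.302), with 7.98, 7.99 and 7.97 in D6/Zbtb20S arrays and 7.33, 7.81 and 7.95 in wildtype arrays. Its other probe set, 1422550_a_at, was at -0.21 and did not pass (adjusted p = 0.237 over all probe sets), so the sign of the Map6 change differed between them. Map9, a protein of the mitotic spindle and cilia, was at -0.07 on its representative probe set (adjusted p = 0.686) but rose on 1441961_at, which read 5.96, 6.27 and 6.19 in D6/Zbtb20S arrays and 4.61, 5.34 and 5.34 in wildtype arrays (1.04 ± 0.19, adjusted p = 0.0175 over all probe sets). The sign of the Map9 change therefore differed between probe sets.

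The 3 doublecortin family genes gave 0 calls in limma, and 0 at an unadjusted p under 0.05, on their representative probe sets. Dcx, the doublecortin of migrating neurons, read 10.28, 10.42 and 10.21 in D6/Zbtb20S arrays and 10.27, 10.12 and 10.17 in wildtype arrays. Its change of 0.11 did not pass (adjusted p = 0.529), yet its probe set 1418141_at rose, with 8.35, 8.56 and 8.23 in D6/Zbtb20S arrays and 7.31, 7.79 and 7.83 in wildtype arrays (0.74 ± 0.15, adjusted p = 0.026 over all probe sets). All 4 Dcx probe sets were positive, and their mean passed (0.34, adjusted p = 0.0151). The related kinase genes Dclk1, at 9.89, 9.90 and 9.84 in D6/Zbtb20S and 9.89, 10.01 and 10.02 in wildtype arrays, and Dclk2 did not pass. Pafah1b1, which encodes the dynein regulator LIS1, was at -0.12 (interval -0.29 to 0.05).

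**Figure D4:**
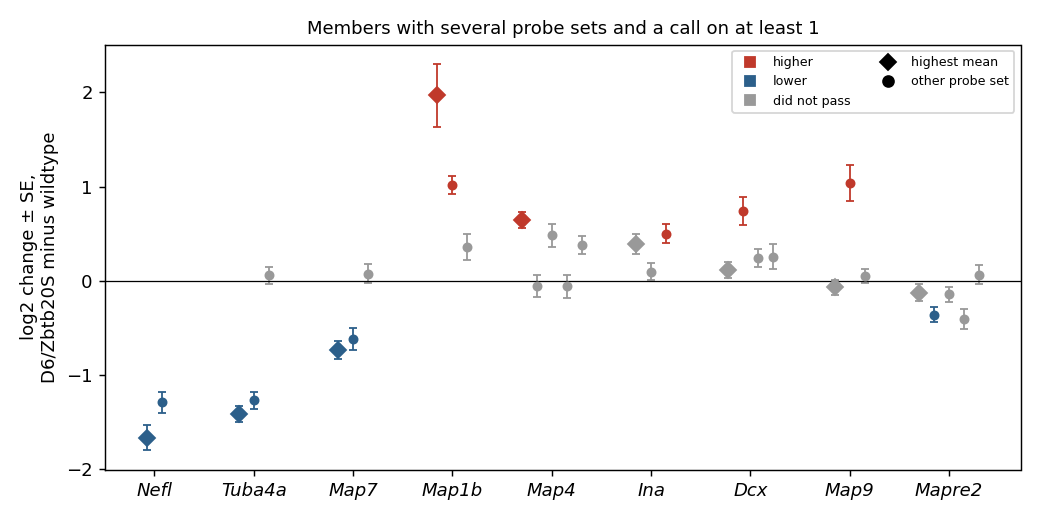
Log2 change ± SE (vertical axis, D6/Zbtb20S minus wildtype) of every probe set of 9 genes that have several and at least 1 call, tested over all 45037 probe sets. Diamonds are the probe sets with the highest mean; Nefl is lower on both of its probe sets, while Dcx, Map9 and Ina rose and Mapre2 fell on 1 probe set each, and not on the representative one.

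At microtubule ends, Mapre2 read 11.27, 11.33 and 11.13 in D6/Zbtb20S arrays and 11.25, 11.41 and 11.45 in wildtype arrays. Mapre1, the gene of end-binding protein EB1, read 10.37, 10.26 and 10.32 in D6/Zbtb20S arrays and 10.14, 10.29 and 10.46 in wildtype arrays. Both overlap and did not pass, though 1 of the 4 other Mapre2 probe sets fell (1426245_s_at, -0.36 ± 0.08, adjusted p = 0.0394 over all probe sets). The rescue factors split in sign without passing: Clasp1 was at 9.52, 9.68 and 9.65 in D6/Zbtb20S and 9.44, 9.44 and 9.45 in wildtype arrays (0.18, adjusted p = 0.239), and Clasp2 at 8.965, 9.003 and 9.041 in D6/Zbtb20S and 9.098, 9.268 and 9.187 in wildtype arrays (-0.18, adjusted p = 0.237). The severing genes Spast and Katna1 had changes of -0.01 and 0.12. The other Spast probe set, 1460400_at, was at 0.35 and did not pass (adjusted p = 0.0939 over all probe sets).

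The 4 stathmin genes, whose proteins bind tubulin dimers, gave 0 calls in limma and 1 at an unadjusted p under 0.05. Stmn1 read 11.88, 12.01 and 12.01 in D6/Zbtb20S arrays and 12.09, 12.09 and 12.09 in wildtype arrays (-0.12, adjusted p = 0.418). Stmn3 read 10.90, 11.03 and 10.97 in D6/Zbtb20S arrays and 10.99, 11.11 and 11.10 in wildtype arrays. Stmn2 was at -0.15 and Stmn4 at 0.19, and Stmn4 arrays did not overlap (adjusted p = 0.246). Gap43, a growth cone protein gene, read 9.92, 10.15 and 10.32 in D6/Zbtb20S arrays and 10.55, 10.13 and 9.94 in wildtype arrays; its interval, -0.43 to 0.27, is wider than those of the stathmins.

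For the 36 genes that did not pass, changes on the representative probe sets ran from -0.37 to 0.28, 26 negative and 10 positive. On these probe sets all 36 intervals excluded a 2-fold change. In 34 of them the interval also excluded a 1.5-fold change, and in 10 a 1.2-fold change. The intervals do not cover the 58 other probe sets of these genes, of which 3 passed over all probe sets. Those were Map9 1441961_at (1.04), Dcx 1418141_at (0.74) and Mapre2 1426245_s_at (-0.36). Both groups lay under the array median for 5 genes, where the method compresses differences. By non-overlap of the arrays alone, 6 of the 43 genes were above and 12 below wildtype, against 12.9% and 13.2% of all genes. Of the 114 probe sets of the 43 genes, 14 passed, 6 higher and 8 lower, against 5.52% of all 45037 probe sets.

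The other genes of the pathway were taken from 5 lists. Over all genes 4.06% passed as higher and 3.64% as lower, beside which the small counts below are to be read. Among 21 measured genes of dynein, LIS1 partners and microtubule kinases, 1 fell and 0 rose: Dync1i1, the neuronal intermediate chain of the dynein motor, read 7.37, 7.26 and 7.32 in D6/Zbtb20S arrays, against 8.90, 9.07 and 8.81 in wildtype arrays. That is a 3.06-fold fall (-1.61 ± 0.09, limma adjusted p = 1.0e-05) without overlap. Among 12 other intermediate filament and linker genes 2 fell. They were Prph, the peripherin gene, which was 2.15-fold lower and under the array median in D6/Zbtb20S tissue (-1.10 ± 0.17, adjusted p = 0.00409), and Syne1, the gene of the nuclear linker nesprin-1 (-1.02 ± 0.11, adjusted p = 0.000514). None of the 3 other Prph or 2 other Syne1 probe sets passed.

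Among 21 tubulin folding and modification genes 1 rose, Ttll7, a polyglutamylase of beta tubulin (0.65 ± 0.14, limma adjusted p = 0.0209), which lost its call in each fit that left out a D6/Zbtb20S array (adjusted p up to 0.0767). Among 32 other end, severing and nucleation genes 1 rose, the neuron navigator Nav2 (0.31 ± 0.07, adjusted p = 0.0337), which lost its call in all 6 fits with an array left out (up to 0.104). The 15 other growth cone and axon genes gave 0 calls in limma and 2 at an unadjusted p under 0.05, with Marcks (-0.35, adjusted p = 0.107) and Marcksl1 (-0.18, adjusted p = 0.207) nearest to the threshold. Median changes of the 5 lists ran from -0.06 to -0.02.

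Over the whole series, the transgene was checked first: Zbtb20 probe set 1422064_a_at read 8.88, 9.10 and 8.94 in D6/Zbtb20S arrays and 6.44, 5.84 and 7.64 in wildtype arrays, with wildtype replicate 3 the highest wildtype array. It was the 1 of 9 Zbtb20 probe sets that passed. The other 8 had log2 changes from -0.37 to 0.85, 4 of them negative. Wildtype replicate 3 was the highest wildtype array on all 9, and on most it lay above every D6/Zbtb20S array. On 1437598_at, for example, D6/Zbtb20S arrays read 8.11, 8.26 and 8.25 and wildtype arrays 8.15, 7.90 and 8.98. Without that replicate the counts were 3 higher and 4 lower of the 43 genes, as with it. Correlations over all genes were at least 0.994 between arrays of one genotype and at most 0.991 between genotypes, and no pair of arrays shared values.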

How the data were processed

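RNA of 6 arrays (3 D6/Zbtb20S, 3 wildtype) was measured with Affymetrix 3' expression arrays. The authors deposited 1 log2 value per probe set and array; the submitters' processing notes name RMA and limma and give neither versions nor order. The log2 scale was taken from the range of the values; array medians were 3.83 to 3.97, and the last scaling and any centring stay unknown. Of 45101 probe sets 64 controls were left out, and 34945 of the rest had 1 symbol. Differences (D6/Zbtb20S minus wildtype, ± SE) came from limma 3.58.1 (R 4.3.3) over 18193 genes or 45037 probe sets, with Benjamini-Hochberg adjustment and a threshold of 0.05; every adjusted p is from this fit unless another is named. The fit was tested on simulated data. The number of arrays limits the precision. The members, lists and named genes were chosen with earlier results of these data known. All members that passed were named with every array, as were up to 2 per role that did not pass and had the highest means. From each pathway list up to 4 genes that passed, or the 2 with the smallest p, were named, with every array for Dync1i1 only. Alternatives were replicate number as a block, leaving out each array, quantile normalization, equal medians, array weights, an intensity trend, an ordinary linear model, a filter on dim probe sets and the mean of probe sets. Figures used matplotlib 3.10.9 in Python 3.11.15.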

Additional observations from a re-analysis of the deposited data

How the results depend on the processing

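Of the 7 genes that passed, Nefl, Nefm and Tuba4a kept their call in all 14 alternatives, and no called member changed sign in any. Map1b (adjusted p = 0.168) and Map7 (adjusted p = 0.0618) lost it in the ordinary linear model, Map4 when its probe sets were averaged (adjusted p = 0.0574), and Ina in 7 alternatives. With an array left out the count was 6 to 7 (2 to 3 higher, 4 to 5 lower), and over all genes it was 777 to 1538 (376 to 922 higher, 401 to 634 lower) against 1402 (739 and 663). The ordinary linear model called 4 members, 1 of them higher, and 267 genes (117 higher, 150 lower), and array weights called 2707 genes (1404 higher, 1303 lower). Map9, at -0.07 in the main result, was at 0.34 when probe sets were averaged (adjusted p = 0.0449), through its probe set 1441961_at. Of the 36 that did not pass, 5 (Tubb4a, Tubb6, Dcx, Clasp2 and Map9) passed in some alternative. With dim probe sets removed, 7 of 38 members and 11.9% of 11839 genes passed. Deviations of same-numbered arrays from their group means correlated at -0.22, 0.18 and -0.01, and those of arrays with unlike numbers from -0.22 to 0.23. Deviations from a mean of 3 arrays are tied to one another, so this check cannot decide whether the numbers pair the samples. The labels do not say so either. With the replicate block 6 members (2 higher, 4 lower) and 1343 genes passed. On the representative probe sets, signals under the array median limit what Nefh, Tuba3b, Tuba8, Tubb1 and Tubb2a-ps2 can show. The alternatives for Dync1i1, Prph, Syne1, Ttll7 and Nav2 were added after seeing the data: Dync1i1 kept its call in all 14, Prph and Syne1 lost theirs in the ordinary linear model (adjusted p = 0.149 and 0.0721), Ttll7 in 4 and Nav2 in 9.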
